A study of Mus musculus with 12 samples.

Results

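A set of 5 mature miRNAs that are known for their expression in mesenchymal cells were followed through 12 small RNA libraries of murine serum. They were chosen by miRBase accession: miR-143-3p (MIMAT0000247), miR-145-5p (MIMAT0000157), miR-199a-5p (MIMAT0000229), miR-199a-3p (MIMAT0000230) and miR-214-3p (MIMAT0000661). Of these, 4 are among the 874 mouse miRNAs listed in the series, and miR-199a-3p has no row in any of the 12 mouse tables. The sera came from 3 female athymic immunodeficient NCr nude mice (mice 1046, 1047 and 1069), aged 4 to 6 weeks in the xenograft protocol. Each mouse gave 1 serum before (time point 1) and 1 serum 2 weeks after (time point 2) human SH-SY5Y neuroblastoma cells, an established cell line, were placed beneath the renal capsule. RNA from 50 μl of each serum was divided over 2 aliquots. From 1 of them, 5′ tRNA fragments, which occupy most reads of such libraries, were captured with biotinylated DNA probes on streptavidin beads. This gives 4 groups of 3 libraries: before depleted, before undepleted, after depleted and after undepleted. Mice without tumour cells at the later time are not among the samples, so the tumour and the elapsed time cannot be told apart.

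miR-143 and miR-145 are made from one primary transcript that is abundant in smooth muscle cells and in other cells of mesenchymal origin, where both are known to favour the contractile state of vascular smooth muscle. miR-199a and miR-214 are made from one long non-coding transcript, Dnm3os, and are known from mesenchymal and skeletal development and from fibroblasts. Serum holds no such cells; its miRNAs were released by blood cells, vessels and tissues. The tables give counts in serum only, so fewer releasing cells and less miRNA released per cell cannot be told apart. A cell type check of the label was not possible, since the tables name miRNAs by accession and no table used here pairs accessions with names.

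The sequences of the miR-199a and miR-214 members are shown because 1 of them is identical to that of another miRNA. They are RefSeq mature sequences (GRCm38.p6) for 3 of the 5 members, with the seed, bases 2 to 8, in capitals.
mmu-miR-199a-5p: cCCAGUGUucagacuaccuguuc
mmu-miR-199a-3p: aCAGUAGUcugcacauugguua
mmu-miR-199b-3p: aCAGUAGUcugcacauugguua
mmu-miR-214-3p: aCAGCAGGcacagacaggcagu
miR-199a-3p and miR-199b-3p are the same 22 bases under 2 names. Of 1005 mouse hairpins, 3 hold this sequence (Mir199a-1, Mir199a-2 and Mir199b). miR-199a-5p is held by 2 hairpins, Mir199a-1 and Mir199a-2, under 1 name, and miR-214-3p by the single hairpin Mir214. Among 1679 mature sequences as listed, no other has the seed of miR-199a-5p, CCAGUGU, at bases 2 to 8. The hairpin Mir199b also holds CCAGUGU, in its 5′ part, so this result rests on the listed ends of the mature sequences. For miR-214-3p, 1 other, mmu-miR-761, shares the seed.

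Mir199a-2 lies at chr1:162217814-162217923 and Mir214 at chr1:162223368-162223477, both on the plus strand of GRCm38, with 5444 bases between the hairpins. Both overlap an exon of the non-coding gene Dnm3os (chr1:162217623-162225550, plus strand), which runs inside an intron of Dnm3 on the opposite strand. The second source of miR-199a, Mir199a-1, lies at chr9:21496495-21496564 on the minus strand, inside an intron of Dnm2 and opposite in orientation. Mir199b lies at chr2:32318460-32318569 on the plus strand, inside an intron of Dnm1, which is on the minus strand. The hairpins of the pair on Dnm3os are given with their mature members in capitals, so that the position of the arms can be read.
Mir199a-2: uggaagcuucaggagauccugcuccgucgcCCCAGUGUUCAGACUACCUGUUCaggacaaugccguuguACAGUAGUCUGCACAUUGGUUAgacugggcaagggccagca
Mir214: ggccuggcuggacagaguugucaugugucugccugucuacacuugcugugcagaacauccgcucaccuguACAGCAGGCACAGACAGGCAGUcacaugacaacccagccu

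Depleted libraries held 938706 to 2271549 mouse miRNA counts and undepleted libraries 21235 to 97183. Mouse 1069 before injection had the lowest total of the 6 undepleted libraries and also of the 6 depleted ones.

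First, the level of each member was evaluated. miR-143-3p was among the most abundant miRNAs of the sera, between rank 12 and rank 19 of the listed miRNAs in all 12 libraries. In the depleted libraries its counts before injection were 18629 in mouse 1046, 23022 in mouse 1047 and 23562 in mouse 1069, and after injection 22891, 15065 and 26742. In the undepleted libraries the counts were 1359, 1095 and 464 before and 710, 459 and 580 after injection. As a share of mouse counts this is between 0.865% and 2.51%, with the highest value in the depleted aliquot of the first serum of mouse 1069 and the lowest in that of the second serum of mouse 1047. The Wilson 95% interval of the highest share is 24786 to 25419 CPM, the count scaled to a library total of 1e+06, and that of the undepleted library of the same serum 19969 to 23905. Such intervals cover counting error only.

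The other counted members were far lower. miR-145-5p, the partner of miR-143, had 240, 421 and 155 counts before and 249, 202 and 388 after injection in the depleted libraries of mice 1046, 1047 and 1069. Its undepleted counts were 30, 28 and 5 before and 16, 6 and 8 after injection. In all 12 libraries miR-143-3p was the highest member, and it exceeded the next highest one 49.1 to 77.6 times in depleted and 39.1 to 76.5 times in undepleted libraries. It made up 95.2% to 97.5% of the members' summed counts.

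miR-199a-5p had 187, 274 and 480 counts before and 398, 225 and 481 after injection in the depleted libraries, in the same order of mice. The undepleted libraries held 16, 8 and 8 counts before and 16, 3 and 12 after injection. miR-214-3p, which shares the Dnm3os transcript with Mir199a-2, had 101, 110 and 144 counts before and 144, 176 and 251 after injection in the depleted libraries. Its undepleted counts were 7, 4 and 2 before and 4, 3 and 3 after injection. miR-214-3p was thus counted in every library, but with single-digit counts in all undepleted ones.

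In order of level, miR-143-3p came first and miR-214-3p last. miR-214-3p was below miR-145-5p in 12 of 12 libraries, and below miR-199a-5p in 6 of 6 depleted and 5 of 6 undepleted libraries, with equal counts of 3 in the undepleted aliquot of the second serum of mouse 1047. miR-145-5p and miR-199a-5p had no fixed order. miR-145-5p was higher in 2 and lower in 4 of the 6 depleted libraries, and in CPM the depleted libraries ranged from 116 to 231 for miR-145-5p, from 129 to 511 for miR-199a-5p and from 60.4 to 153 for miR-214-3p. These ranges overlap for each neighbouring pair below miR-143-3p.

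miR-199a-3p was listed in no library. Read as a count of 0, with 3 counts as the limit that a count of 0 allows, this would permit up to 3.20 CPM in the depleted library with the lowest total and up to 141 CPM in the smallest undepleted library. In comparison, miR-199a-5p, the other arm of the same hairpins, had at least 129 CPM in each depleted library. Of both arms, the 3p sequence is the one listed under more than 1 mature name, and whether this sets the missing row was not tested, since the way in which reads of several loci were counted is not given in the sources used here. Ratios with miR-199a-3p were therefore not computed, and its level in serum is not known from these tables.

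To evaluate whether the members changed with tumour growth, libraries before and after injection were compared, separately for depleted and undepleted aliquots. Values are normalised read counts, that is counts divided by the DESeq2 size factor of the library within the depleted or the undepleted fit. miR-143-3p was lower after injection in 3 of 3 mice in both kinds of aliquot. None of the 4 counted members reached the criterion for a changed miRNA, an adjusted p-value under 0.05 together with a difference of at least 2-fold. By this criterion 10.6% of the 310 miRNAs tested in depleted and 11.1% of the 108 tested in undepleted libraries were changed.

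In the depleted libraries miR-143-3p had 24916.5 normalised counts in mouse 1046, 25345.1 in mouse 1047 and 37566.2 in mouse 1069 before injection, and 18371.2, 12465.7 and 17613.4 after it. All 3 libraries after injection lie below all 3 before it, as was the case for 17.7% of the tested miRNAs. Its level fell from 29276 ± 7183 to 16150 ± 3213 (mean ± SD of 3 libraries each), a log2 fold change of -0.80 (SE 0.27, adjusted p = 0.023 with DESeq2). An adjusted p-value under 0.05 was found for 16.8% of all tested miRNAs, and for 9.35% together with a lower level after injection. The difference per mouse was -0.44, -1.02 and -1.09 on the log2 scale in mice 1046, 1047 and 1069.

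In the undepleted libraries the normalised counts of miR-143-3p were 847, 785.9 and 1070 before and 559.7, 476.4 and 631.2 after injection. Again the groups do not overlap, as for 17.6% of the tested miRNAs. The mean fell from 901 ± 149 to 556 ± 77 (mean ± SD of 3 libraries each), a log2 fold change of -0.66 (SE 0.23, adjusted p = 0.022 with DESeq2), with 19.4% of the tested miRNAs under the same adjusted p-value and 9.26% under it and lower. The mice differed little here, with log2 differences of -0.60, -0.72 and -0.76. The aliquots share their sera and are not independent of each other.

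The adjusted p-value of miR-143-3p, not its direction, depended on the analysis. In the depleted libraries it was 0.11 with edgeR, 0.19 with counts scaled to the library total, 0.065 without mouse 1046 and 0.27 without mouse 1047. In the undepleted libraries it was 0.31 with edgeR, 0.072 with counts scaled to the library total, 0.46 without mouse 1046, 0.998 without mouse 1047 and 0.090 in the paired analysis, with the mouse as replicate block. The DESeq2 values were adjusted over unlike numbers of miRNAs. These were 108 in the main fit, 201 without mouse 1046, 395 without mouse 1047 and 159 in the paired analysis. Without mouse 1047 the undepleted log2 fold change was -0.54 (SE 0.35).

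miR-145-5p did not pass the test in either kind of aliquot. Its normalised counts in depleted libraries were 321, 463.5 and 247.1 before and 199.8, 167.1 and 255.6 after injection. The groups overlap because mouse 1069, lowest before, was highest after injection. The mean was 344 ± 110 before and 208 ± 45 after injection (mean ± SD of 3 libraries each), a log2 fold change of -0.66 (SE 0.31, adjusted p = 0.13 with DESeq2), with a 95% interval of the log2 fold change from -1.26 to -0.06. Without mouse 1069 the log2 fold change was -0.99 and the DESeq2 adjusted p 0.0012, and without mouse 1047 they were -0.24 and 0.78. In the undepleted libraries the log2 fold change was also fitted at -0.66, at 5 to 30 raw counts per library (SE 0.46, adjusted p = 0.34 with DESeq2). Without DESeq2's prior on fold changes the values were apart, -0.90 in undepleted and -0.73 in depleted libraries.

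miR-199a-5p had normalised counts of 250.1, 301.6 and 765.3 before and 319.4, 186.2 and 316.8 after injection in the depleted libraries. A single library, that of mouse 1069 before injection, lies far above the other 5, which overlap. The means were 439 ± 284 and 274 ± 76 (mean ± SD of 3 libraries each), a log2 fold change of -0.59 (SE 0.36, adjusted p = 0.25 with DESeq2), and the 95% interval runs from -1.29 to 0.12. The log2 fold change was -0.10 without mouse 1069 and -0.90 without mouse 1046, at DESeq2 adjusted p-values of 0.82 and 0.17. Mouse 1069 also had the highest value before injection in the undepleted libraries, where the normalised counts were 9.97, 5.74 and 18.4 before and 12.6, 3.11 and 13.1 after injection. The undepleted log2 fold change was -0.09 with a standard error of 0.49 and could not be given an adjusted p-value, since the level of miR-199a-5p fell under the cut-off of DESeq2's independent filtering.

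miR-214-3p showed the smallest difference of the counted members in depleted libraries. Its normalised counts were 135.1, 121.1 and 229.6 before and 115.6, 145.6 and 165.3 after injection, so that the later values lie almost within the range of the earlier ones. The log2 fold change was -0.16 (SE 0.32, adjusted p = 0.79 with DESeq2), with a 95% interval from -0.80 to 0.47. A difference of 2-fold in either direction lies outside this interval. In undepleted libraries, with at most 7 counts, the log2 fold change was -0.13 and the 95% interval ran from -1.14 to 0.87. A 2-fold decrease lies within this interval and could not be detected at this depth. Without DESeq2's prior on fold changes the value was -0.28 with a standard error of 1.08, so that a 2-fold increase was not excluded either.

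**Figure D1:**
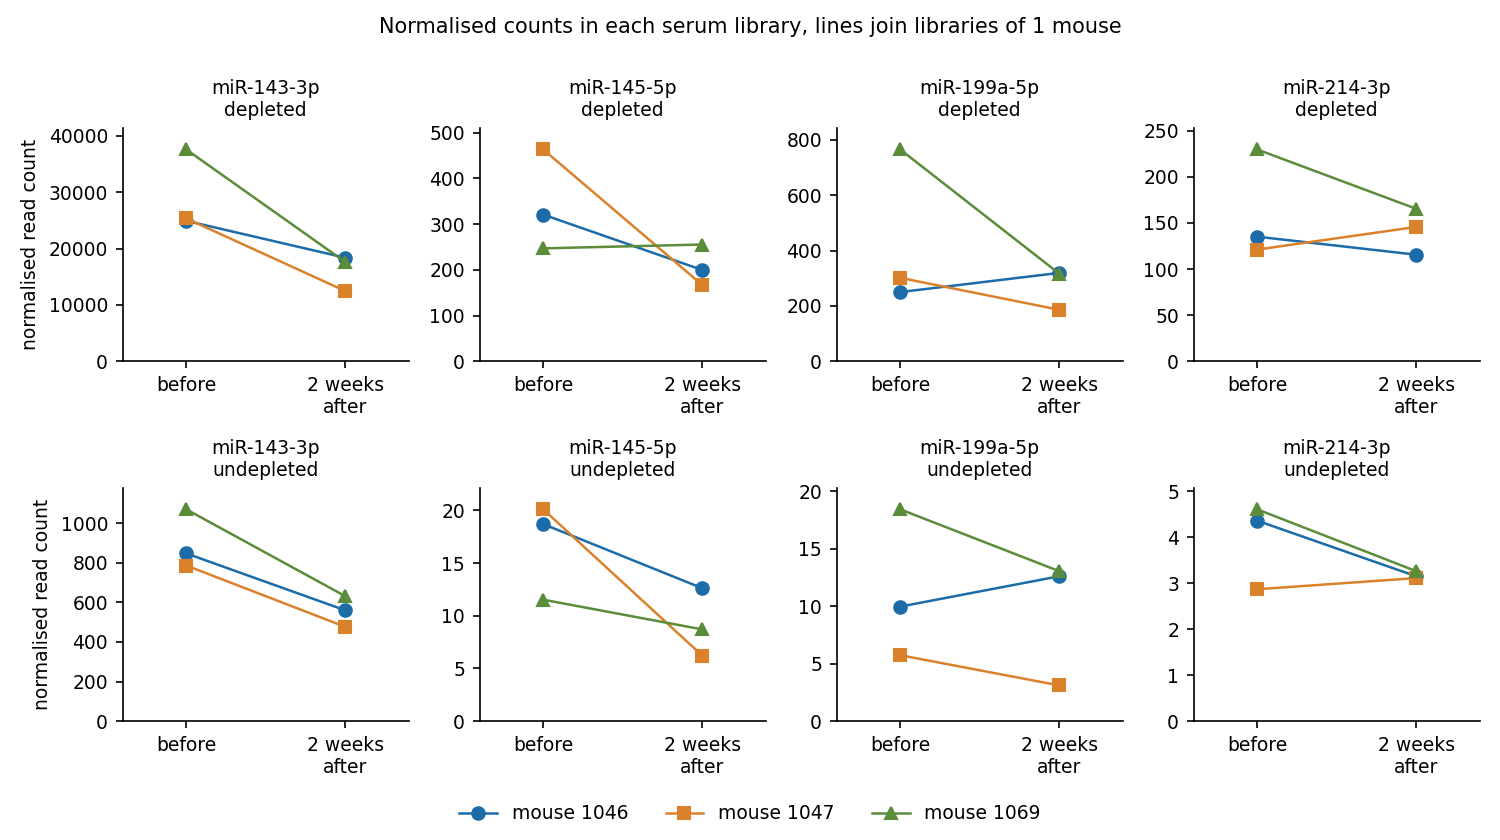
Normalised read counts (y axes, linear from 0) of the 4 counted miRNAs before and 2 weeks after injection (x axes) in depleted (upper row) and undepleted (lower row) libraries. Each point is 1 library and each line joins the libraries of 1 mouse. All 6 lines of miR-143-3p go down. Rising lines are those of miR-199a-5p in mouse 1046 and miR-214-3p in mouse 1047, in both rows, and of miR-145-5p in mouse 1069 in the upper row. Mouse 1069 starts highest for miR-143-3p, miR-199a-5p and miR-214-3p and lowest for miR-145-5p.

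The members were also compared with the erythroid miRNA miR-16-5p (MIMAT0000527), which is abundant in red blood cells and is used as a sign of hemolysis. In depleted libraries miR-16-5p went from 213564 ± 45918 to 97104 ± 13048 (mean ± SD of 3 libraries each), a log2 fold change of -1.07 (SE 0.25, adjusted p = 0.00088 with DESeq2). It was lower after injection in 3 of 3 mice in both kinds of aliquot. Across the 6 depleted libraries, the log2 normalised counts of miR-16-5p had a Pearson's r of 0.68 with miR-143-3p, 0.81 with miR-145-5p, 0.17 with miR-199a-5p and -0.15 with miR-214-3p. These points share mice and library size factors. The part of red blood cell RNA in the changes of the members was not tested, and the other markers of blood cells, vessels and muscle could not be matched to accessions.

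The size of the changes also depended on the scaling. With counts scaled to the library total, the median log2 fold change of miRNAs with at least 50 normalised counts shifted by 0.22 in depleted libraries, and 32 of 37 changed miRNAs were higher after injection, against 15 of 33 with the size factors. miR-143-3p moved along, from -0.80 to -0.58. Relative to that median it was at -0.67 with the size factors and at -0.68 with the library total, and miR-145-5p at -0.54 and -0.50, miR-199a-5p at -0.46 and -0.51 and miR-214-3p at -0.04 and -0.07. The sign of miR-214-3p turned with the library total, to a log2 fold change of 0.03.

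Next, the aliquots of each serum were compared, to assess whether the depletion of tRNA fragments affected the relative level of the members. All 12 libraries were fitted together, with the time point as covariate and without pairing the aliquots of a serum. No member was changed, in comparison with 8.36% of the 383 tested miRNAs that were changed by at least 2-fold and 14.4% with an adjusted p-value under 0.05.

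miR-143-3p differed least between the aliquots among the 4 counted members. Its normalised counts on the scale of the 12 libraries were 2349 at lowest, 3835 in the median and 6282 at highest in the depleted libraries and 2689, 3946 and 5844 in the undepleted ones. The log2 difference between the aliquots of one serum was between -0.20 and 0.10, with a mean of -0.03 ± 0.12 (SD, n = 6 sera). The fitted log2 fold change was -0.02 (SE 0.15, adjusted p = 0.94 with DESeq2), with a 95% interval from -0.32 to 0.28. With TMM factors it was 0.26, while the median of the abundant miRNAs shifted by 0.25 as well.

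miR-145-5p was lower in the depleted aliquot of 6 of 6 sera. The depleted libraries had 31.5 normalised counts at lowest, 45.4 in the median and 77.9 at highest, and the undepleted ones 35.1, 67.3 and 108.9. The differences on the log2 scale ran from -0.96 to -0.02, with both sera of mouse 1046 at the low end, and had a mean of -0.51 ± 0.37 (SD, n = 6 sera). The fitted value was -0.59 (SE 0.26, adjusted p = 0.13 with DESeq2) and did not pass the test. Without mouse 1069 it was -0.67 at an adjusted p of 0.044 with DESeq2, and without mouse 1046 -0.37 at 0.89. With TMM factors it was -0.33 at an adjusted p of 0.51 and with edgeR -0.33 at 0.84. With the serum as block, which pairs the aliquots, it was -0.56 (SE 0.22, adjusted p = 0.069 with DESeq2) and did not pass the test either. miR-16-5p differed by a like amount, with a log2 fold change of -0.56 (SE 0.16, adjusted p = 0.0053 with DESeq2).

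For miR-199a-5p and miR-214-3p the undepleted counts limited the comparison. miR-199a-5p was lower in the depleted aliquot in 3 of 6 sera, with log2 differences from -0.31 to 1.00 and a fitted value of 0.14 (SE 0.38, adjusted p = 0.88 with DESeq2). miR-214-3p was lower in 1 of 6 sera, with differences from -0.01 to 0.77 and a fitted value of 0.46 (SE 0.37, adjusted p = 0.49 with DESeq2). The 95% intervals were -0.60 to 0.88 for miR-199a-5p and -0.25 to 1.18 for miR-214-3p, wider than that of miR-143-3p. Both values moved with the scaling and with single mice. miR-199a-5p was at 0.39 with TMM factors, 0.43 with edgeR, 0.29 without mouse 1046, 0.012 without mouse 1047 and 0.058 without mouse 1069. miR-214-3p was at 0.69 with TMM factors, 0.73 with edgeR and 0.25 without mouse 1069. None of these values passed the test.

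**Figure D2:**
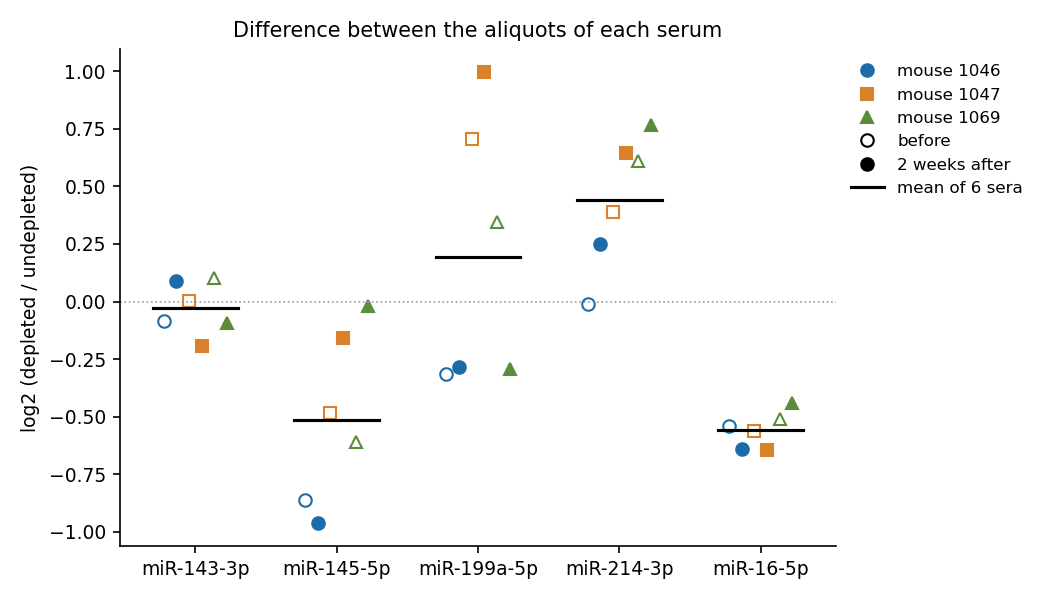
Log2 ratio of depleted to undepleted normalised counts (y axis) for the 4 counted miRNAs and miR-16-5p (x axis). Each point is 1 serum, with open symbols before and filled symbols 2 weeks after injection, and the black lines are means of 6 sera. miR-143-3p stays within -0.20 to 0.10, all 6 sera of miR-145-5p lie below 0, and miR-199a-5p spreads over both sides.

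Whether the change with tumour growth differed between the aliquots was tested with an interaction of time point and depletion. Unlike the other DESeq2 fits above, this one used no prior on fold changes. No member and none of the 874 miRNAs (0%) passed an adjusted p-value under 0.05 with DESeq2 or edgeR, with 3 miRNAs at an unadjusted p under 0.05 with DESeq2 and 11 with edgeR. For miR-143-3p the interaction was -0.08 on the log2 scale, with a 95% interval from -0.71 to 0.56. The intervals were wider for miR-145-5p (-0.81 to 1.37), miR-199a-5p (-2.09 to 1.14) and miR-214-3p (-1.36 to 1.72).

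**Figure D3:**
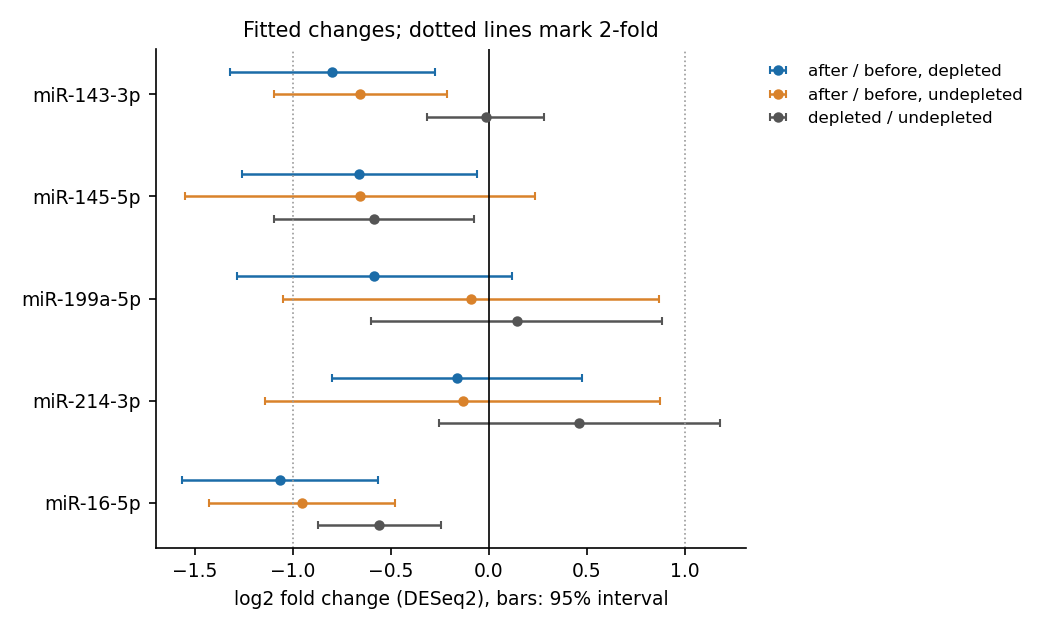
Fitted log2 fold changes (x axis) of the 4 counted miRNAs and miR-16-5p (y axis) after against before injection in depleted and undepleted libraries, and in depleted against undepleted aliquots. Points are DESeq2 estimates, bars 95% intervals and dotted lines 2-fold changes. Both tumour intervals of miR-143-3p lie below 0 and reach past 2-fold, at -0.80 and -0.66, and its depletion estimate is close to 0.

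Members made from one transcript were then compared within a library, since a ratio of 2 counts does not depend on the normalization. The ratio of miR-143-3p to miR-145-5p in depleted libraries was 77.5, 54.6 and 152 before and 91.8, 74.4 and 68.8 after injection in mice 1046, 1047 and 1069. In undepleted libraries it was 44.6, 38.4 and 84.5 before and 43.1, 70.7 and 68.3 after injection. Before injection mouse 1069 had the highest ratio in both aliquots. The log2 ratio was 6.43 ± 0.75 before and 6.28 ± 0.21 afterwards in the depleted aliquots (SD, n = 3 each, difference -0.15, exact permutation test, two-sided p = 0.8, adjusted p = 1 over the 6 ratio tests). In undepleted libraries it was 5.71 ± 0.60 and 5.89 ± 0.40 (SD, n = 3 each, difference 0.17, exact permutation test, p = 0.9, adjusted p = 1). With 3 against 3 libraries the smallest p-value such a test can give is 0.1.

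Between aliquots, the ratio of miR-143-3p to miR-145-5p with 0.5 added to both counts was higher in the depleted one in 6 of 6 sera. For the second sera of mice 1047 and 1069 this rests on the added 0.5. Without it the ratio was lower in the depleted aliquot. There the log2 differences between aliquots were -0.195 and -0.092 for miR-143-3p, against -0.158 and -0.019 for miR-145-5p. The log2 ratio was 6.36 ± 0.50 in depleted and 5.80 ± 0.47 in undepleted libraries, a difference of 0.55 ± 0.44 (SD over 6 sera, exact permutation test by sign flips, two-sided p = 0.03125, the smallest value 6 sera can give). Adjusted over the 6 ratio tests p was 0.19 in this exact test. The 6 sera come from 3 mice, so the p-value counts each mouse more than once. It also requires all 6 differences to share a sign, which in these sera depended on the 0.5 added. Ratios without the added 0.5 were not tested.

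The ratio of miR-214-3p to miR-199a-5p, which replaces the planned ratios with miR-199a-3p and was chosen after the counts had been seen, was below 1 in 11 of 12 libraries and equal to 1 in the undepleted aliquot of the second serum of mouse 1047. In depleted libraries it was 0.54, 0.40 and 0.30 before and 0.36, 0.78 and 0.52 after injection. It was higher after injection in mice 1047 and 1069 and lower in mouse 1046. The log2 ratio went from -1.31 ± 0.42 to -0.92 ± 0.56 (SD, n = 3 each, exact permutation test, p = 0.5, adjusted p = 1), and between aliquots it differed by 0.14 ± 0.49 (SD over 6 sera, exact permutation test by sign flips, p = 0.53, adjusted p = 1). The difference between the time points in depleted libraries, 0.39, was 0.88 without mouse 1046, 0.11 without mouse 1047 and 0.19 without mouse 1069. Since 2 hairpins give miR-199a-5p and 1 gives miR-214-3p, this ratio is not one of a single transcript.

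**Figure D4:**
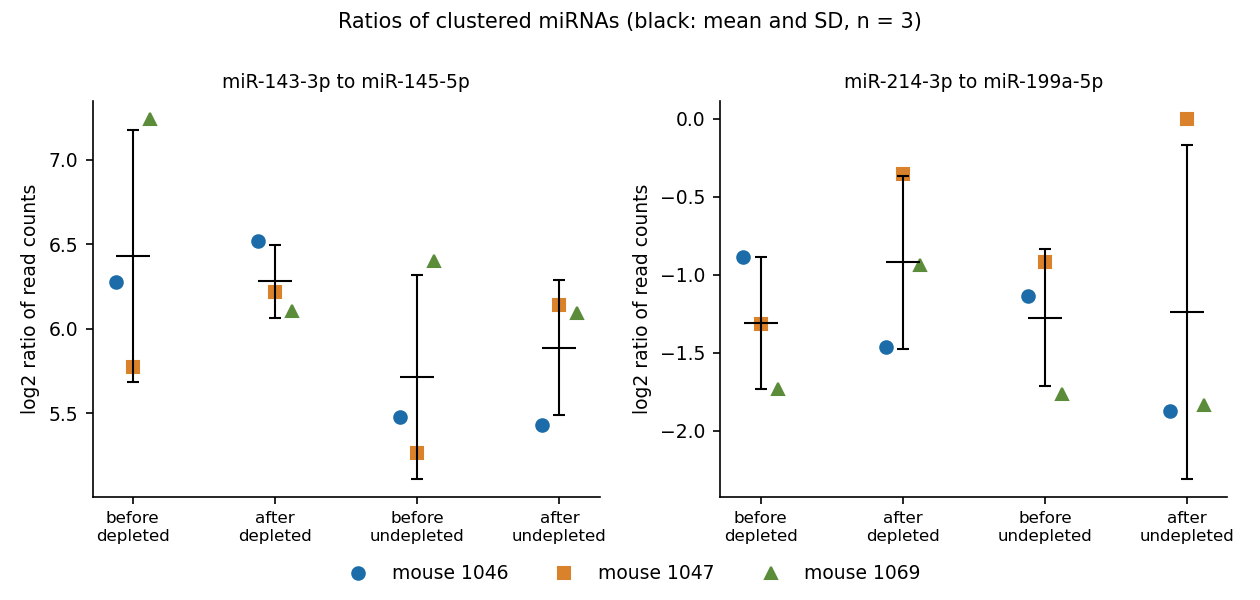
Log2 ratio of read counts (y axes) of miR-143-3p to miR-145-5p and of miR-214-3p to miR-199a-5p in the 4 groups of libraries (x axes). Coloured points are mice and black marks the mean and SD of 3 libraries. The groups before and after injection overlap for both ratios, and the first ratio is higher in depleted libraries, with a mean of 6.36 against 5.80.

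How far the members varied together was described over the 6 depleted libraries, by Pearson's r of log2(normalised count + 1). Points share mice and size factors, so no p-value is given. miR-143-3p and miR-145-5p had an r of 0.56, and miR-199a-5p and miR-214-3p of 0.72. The highest value among members was 0.82, between miR-143-3p and miR-199a-5p, which come from different transcripts, and miR-145-5p and miR-214-3p had -0.19. The high level of mouse 1069 before injection is shared by miR-143-3p, miR-199a-5p and miR-214-3p but not by miR-145-5p.

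Among the 209 other miRNAs with a mean of at least 50 normalised counts in depleted libraries, those most like miR-143-3p were MIMAT0000654 (r = 0.97) and MIMAT0000536 (r = 0.94). MIMAT0003711 (r = 0.97) and MIMAT0000531 (r = 0.94) were most like miR-145-5p. For miR-199a-5p these were MIMAT0016991 (r = 0.97) and MIMAT0000126 (r = 0.96), and for miR-214-3p MIMAT0000208 (r = 0.93) and MIMAT0000381 (r = 0.93). In the 6 undepleted libraries the same pairs had an r between 0.33 and 0.79. MIMAT0000654 was itself at a log2 fold change of -0.96 after injection (SE 0.35, adjusted p = 0.041 with DESeq2), and the other 7 did not pass the test.

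Finally, the same reads were looked up in the tables counted against the human genome, to evaluate whether the members could be assigned to host or tumour. Each counted member has a human row with nearly the same counts, matched by counts and not by name. For miR-199a-5p (MIMAT0000231) and miR-214-3p (MIMAT0000271) the counts were identical in 12 of 12 libraries. For miR-143-3p (MIMAT0000435) and miR-145-5p (MIMAT0000437) they were identical in 11 of 12 libraries and differed by 1 count in all. Reads of the members from murine and from SH-SY5Y cells can therefore not be told apart in these tables. Fitted within the human tables, the log2 fold changes in depleted libraries were -0.71 for miR-143-3p (DESeq2 adjusted p = 0.045), -0.58 for miR-145-5p, -0.48 for miR-199a-5p and -0.07 for miR-214-3p, all but the first without passing the test.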

How the data were processed

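Small RNA libraries (TruSeq small RNA kit, 15 PCR cycles) of 12 serum aliquots were analysed. The authors deposited raw read counts per mature miRNA, in a mouse and a human table for each library. Per the methods, they trimmed adaptors (Cutadapt 1.8.1), discarded reads under 15 bases, mapped without mismatches (Bowtie 1.1.2) to GRCm38/mm10 or GRCh37/hg19 and annotated with miRBase release 20. A miRNA that is not listed was taken as 0. Differences in ligation between miRNAs were not corrected for, so levels of different miRNAs are compared as read counts only.

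Counts were tested with DESeq2 1.42.0 (R 4.3.3), the tool of the study: Wald test with a prior on fold changes, fitted to all listed miRNAs. Time points were compared in depleted and undepleted libraries separately. The comparison of aliquots and the interaction used all 12 libraries, and the interaction was fitted without the prior. Adjusted p-values of DESeq2 are Benjamini-Hochberg over the miRNAs that passed independent filtering, and how many passed differed between the fits. Those of edgeR are over all miRNAs fitted, for the time points 861 in depleted and 442 in undepleted libraries. The 95% intervals are the estimate ± 1.96 standard errors. Ratios used a pseudocount of 0.5 and exact permutation tests. The fits were tested on simulated data. Alternatives were edgeR 4.0.16, other scalings, a filter of 4 counts in 3 libraries, no prior, no 2-fold cut-off, leaving out each mouse, and the mouse or serum as block. No 2 libraries of a group agreed within sampling noise (chi-square per degree of freedom of at least 7.72).

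The members and lists were chosen with earlier results of these data known. Named miRNAs are the members, miR-16-5p and, per member, the 2 miRNAs most like it. The 8 fixed lists of markers and the relatives of the members could not be matched, since no table pairs accessions with names. Sequences of miR-143 and miR-145 were not used here. Mouse numbers mark the same animal and pair the libraries. Deviations from the group mean correlated positively between the aliquots of a serum (r of 0.43 to 0.62). Between the sera of a mouse r was -0.41 to 0.10, and negative in all but the depleted libraries of mouse 1047.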

Additional observations from a re-analysis of the deposited data

How the results depend on the processing

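miR-143-3p was lower after injection under all 10 alternatives in each kind of aliquot, but its DESeq2 adjusted p-value of 0.023 in depleted libraries was lost with edgeR (log2 fold change -0.80) and library-total scaling (-0.58), and ranged over -0.95 to -0.67 on the log2 scale when 1 mouse was left out. In undepleted libraries it was lost with edgeR (-0.70), library-total scaling (-0.59) and the paired analysis by mouse (replicate block, -0.65), and the values without 1 mouse were -0.64 to -0.54. The block changed no other call of a member, and gave 26, 11 and 27 changed miRNAs in depleted libraries, in undepleted libraries and between aliquots. miR-145-5p ranged from -0.99 to -0.24 in depleted libraries without 1 mouse, and from -0.67 to -0.37 between aliquots.

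Differences near 0 changed sign. miR-214-3p in depleted libraries was at 0.026 with library-total scaling and between -0.27 and 0.032 without 1 mouse, and miR-199a-5p in undepleted libraries between -0.23 and 0.012. The depletion difference of miR-143-3p was 0.26 with edgeR, 0.26 with TMM factors, 0.10 with library-total scaling and 0.067 in sera before injection, and -0.053 to 0.054 without 1 mouse, and that of miR-199a-5p -0.072 in sera after injection. Without 1 mouse, the interaction of miR-143-3p was -0.25 to 0.067, the tumour change of the log2 ratio of miR-143-3p to miR-145-5p -0.45 to 0.35 in depleted and -0.18 to 0.41 in undepleted libraries, and that of miR-214-3p to miR-199a-5p -0.40 to 0.42 in undepleted libraries and -0.021 to 0.40 between aliquots. The cause was not tested.

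The number of changed miRNAs was 33 in depleted libraries (52 without the 2-fold cut-off, 11 to 32 without 1 mouse), 12 in undepleted libraries (21 and 1 to 11) and 32 between aliquots (55, 19 to 33, and 17 in sera before injection). Counts of 2 to 30 limit the undepleted comparisons of miR-145-5p, miR-199a-5p and miR-214-3p.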
